A study of Mus musculus with 6 samples.

Results

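The genes described here are 36 genes of cholesterol and fatty acid synthesis, of the sterol sensors that set it, and of the liver X receptor (LXR) genes of cholesterol export. They were given as a list of symbols, and all 36 were found, each in 1 row, among the 43432 genes of the deposited table of mouse atrial RNA. The table prints symbols in capitals, so the match ignored case. Atria of 3 samples from mice fed a high-fat diet (HFD) were compared with atria of 3 samples from mice of the same age fed a control chow. All were wild-type C57/Bl6J animals that began their diet at 6 weeks of age and stayed on it for 10 weeks, and right and left atrial tissue went into the RNA. Diets were assigned from the titles, with which the table's column headings match. Each sample's treatment entry names the other diet, in all 6 cases, and if those entries were right every difference below would change its sign. Whether a sample is 1 mouse or a pool is not stated, so p-values measure the spread between these samples only. The diet group is a model of obesity by feeding alone, and body weights of these animals were not analysed here.

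Cells set their own lipid synthesis through the sterol regulatory element-binding proteins (SREBPs). These membrane-bound transcription factors are escorted by SCAP to the Golgi apparatus and cleaved when sterols are scarce, while INSIG proteins hold them in the endoplasmic reticulum when sterols are plentiful. SREBP-2 mainly drives the cholesterol enzymes and SREBP-1c the fatty acid enzymes, whose output insulin raises and dietary polyunsaturated fat lowers in liver. LXRs sense oxysterols and turn on the exporters ABCA1 and ABCG1 together with Srebf1. The heart takes up most of its fatty acid from blood and makes little itself.

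The values are normalized counts, which are read counts per gene divided by 1 size factor per sample. Between 15874251 and 28971508 reads lay on genes, the most in control 2, where mitochondrially encoded genes held 30.7% of reads against 19.5% to 24.4% in the other samples. The tissue label was borne out by atrial myocyte genes: Nppa, encoding atrial natriuretic peptide, had a mean normalized count of 228228 in HFD and 287838 in control atria. Control 2 stood apart in the sum of ventricular myocyte genes (Myl2, Myl3, Irx4 and Myh7). The sum was 17399 normalized counts there and between 6882 and 9866 in the other samples. Myl2 and Myl3 were highest there, at 8176 and 5513, as was the sparse Irx4. Myh7 was not, at 3677 in control 2 and 3697 in control 3. In whole tissue, fewer cells of a type and less RNA per cell cannot be told apart.

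Across the 36 genes, none passed limma after adjustment over all genes. The fatty acid enzymes Fasn, Scd1, Scd2 and Fads2 had lower normalized counts in every HFD sample than in any control, with unadjusted p-values under 0.05, of which that of Scd2 rested largely on HFD 3, while no sterol synthesis enzyme and no SREBP regulator reached an unadjusted p under 0.05. The test was limma on log2(normalized count + 1), a scale that understates the differences of low genes, over the 15275 genes with a mean of at least 10, and all 36 genes passed that filter. By limma 0 of the 36 had an adjusted p under 0.05, against 0.746% of all genes tested. At an unadjusted p under 0.05, 4 of the 36 (11.1%) were lower in HFD, against 5.55% of all genes tested, and 0 were higher, against 6.66%. For 6 of the 36, all HFD samples lay below all control samples (16.7%, against 9.17% of all genes tested), and for 1 they all lay above (2.78%, against 8.86%). The count of adjusted calls depended on the tool. On the recovered reads, edgeR's quasi-likelihood test called 0 of the 36 with TMM scaling (against 0.57% of all genes tested) and 0 with RLE scaling (against 0.596%). The same 4 genes were lower at an unadjusted p under 0.05 with both, against 5.43% and 5.4% of all genes. The DESeq2 Wald test called 3 lower, Fasn, Scd1 and Fads2 (8.33% of the 36, against 1.26% of all genes with an adjusted p), and 0 higher (against 2.07%). The adjusted p-values from DESeq2 were 0.000125 for Fasn, 0.000459 for Scd1 and 0.016 for Fads2. The median log2 difference of the 36, HFD minus control, was -0.04, beside 0.01 for all genes tested.

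**Figure D1:**
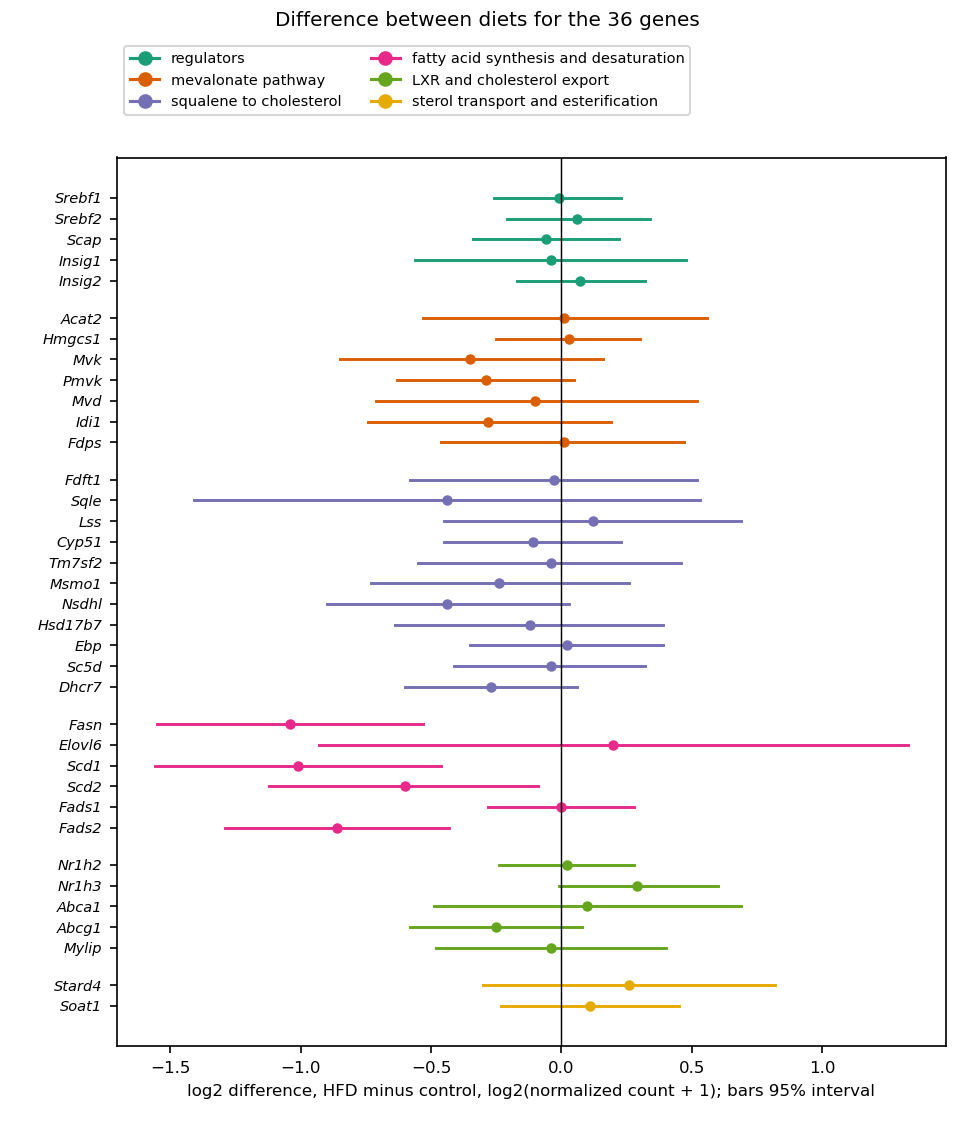
Log2 difference of HFD and control atria (HFD minus control, on log2(normalized count + 1)) for each of the 36 genes, coloured by role, with the 95% interval from limma. The intervals of Fasn, Scd1, Scd2 and Fads2 lie below 0, and those of the other 32 genes cross it.

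Fasn encodes fatty acid synthase, the enzyme complex that builds palmitate from acetyl-CoA and malonyl-CoA. Its normalized counts were 866, 920 and 660 in HFD samples 1, 2 and 3 and 1739, 2305 and 1139 in control samples 1, 2 and 3. Every HFD sample lay below every control sample, and the controls spread more widely than the HFD samples. The means were 815 ± 137 and 1728 ± 583 (SD, n = 3 each), 2.12 times as much in control atria. The log2 difference was -1.04 (95% interval -1.55 to -0.53, adjusted p = 0.0741 from limma). Without control 2, the highest sample and the one rich in Myl2 and Myl3, it was -0.80. Without control 3, the lowest control, it was -1.31 (adjusted p = 0.0485 from limma). In that fit Fasn was the 1 gene of the 36 called lower, against 0.0393% of all genes.

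Scd1 and Scd2 encode stearoyl-CoA desaturases, which place the first double bond in saturated fatty acids and so make oleate and palmitoleate. Scd1 had 1289, 1264 and 908 normalized counts in HFD samples 1, 2 and 3 and 2229, 3445 and 1569 in control samples 1, 2 and 3. The order of the samples was nearly that of Fasn, with control 2 highest and HFD 3 lowest. Its log2 difference was -1.01 (95% interval -1.56 to -0.46, adjusted p = 0.102 from limma), and -0.71 without control 2. Scd2 had 1644, 1971 and 931 normalized counts in the HFD samples and 2022, 2082 and 2523 in the controls. Here HFD 2 came close to the lowest control and HFD 3 stood far below all other samples. The log2 difference of Scd2 was -0.60 (95% interval -1.12 to -0.09, adjusted p = 0.331 from limma). It rested largely on HFD 3: without that sample it was -0.29 (adjusted p = 0.367 from limma).

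Fads2 encodes the desaturase that opens the synthesis of long polyunsaturated fatty acids from linoleate and linolenate. It had 123, 133 and 90.9 normalized counts in HFD samples 1, 2 and 3 and 224, 205 and 193 in control samples 1, 2 and 3. Every HFD sample lay below every control sample. The means were 115 ± 21.8 in HFD and 208 ± 15.4 in control atria (SD, n = 3 each). The log2 difference was -0.86 (95% interval -1.29 to -0.43, adjusted p = 0.0797 from limma), and it stayed between -0.97 and -0.70 with each sample left out in turn. The two-sided exact permutation p was 0.1 for each of these 4 genes, the smallest that 3 samples against 3 can give.

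The other desaturase and the elongase of the list did not share this difference. Fads1, which acts after Fads2 in the same pathway and is its neighbour on chromosome 19, had 673, 660 and 545 normalized counts in the HFD samples and 624, 645 and 603 in the controls. The groups overlapped fully, with a log2 difference of 0.00 to 2 decimals and a 95% interval of -0.28 to 0.28. Elovl6, which lengthens palmitate to stearate, had 71.3, 25.5 and 56.8 normalized counts in the HFD samples and 26.9, 87.6 and 28.4 in the controls. It was high in HFD 1, HFD 3 and control 2 and low in the other samples of both diets, so its 95% interval ran from -0.93 to 1.33.

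**Figure D2:**
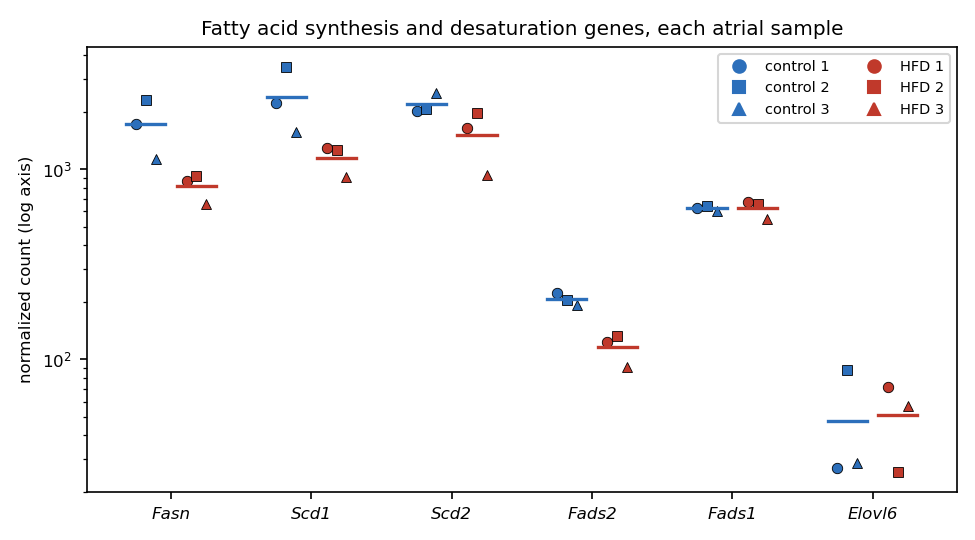
Normalized counts (log axis) of the 6 genes of fatty acid synthesis and desaturation in each control and HFD atrial sample, with horizontal bars at the group means. Fasn, Scd1, Scd2 and Fads2 have every HFD sample below every control sample, from 660 to 920 against 1139 to 2305 for Fasn, while Fads1 and Elovl6 overlap.

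Markers of other cells in the tissue were set beside these genes. Adipocytes express Fasn and Scd1 strongly, and the 10 adipocyte markers summed to between 7577 and 14472 normalized counts in HFD and between 3686 and 7538 in control atria. Of the 10, 4 were higher at an unadjusted p under 0.05 (against 6.66% of all genes tested) and 0 were lower (against 5.55%). None was at 0 in any sample. The most abundant were Fabp4 (mean normalized count 6723 in HFD and 3782 in control), Cfd (1114 and 759) and Pck1 (925 and 179). Fabp4 made up most of the sum in every sample, and for 8 of the 10 markers the groups overlapped. The mean log2 deviation of the 10 weights them equally and overlapped between the diets. It was 1.09, -0.38 and 0.24 in HFD samples 1, 2 and 3 and 0.51, -0.33 and -1.12 in the controls. Of the 5 brown adipocyte markers 4 were tested, and Ucp1 and Cidea were higher by limma (adjusted p = 0.0446 and 0.031), while Elovl3 was at 0 in some controls. Dio2 was also higher without overlap (adjusted p = 0.0591 from limma). The mean log2 deviation of this list separated the diets, at 1.06, 0.42 and 1.05 in HFD samples 1, 2 and 3 and -0.23, -1.10 and -1.19 in the controls. Most of its summed count came from Cox8b (mean normalized count 2506 in HFD and 2919 in control), which heart muscle also expresses. The sum lay between 2882 and 3962 in HFD and between 2564 and 3527 in control atria.

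The Schwann cell list, of cells that make much lipid for myelin, had 1 gene higher and 2 lower at an unadjusted p under 0.05. At that level 6.66% of all genes tested were higher and 5.55% lower. Sox10 was among the lower ones, and Mbp was the higher one. The sum of the list ranged from 880 to 1123 normalized counts in HFD and from 970 to 1163 in control atria. The mean log2 deviation of the list, which weights the 5 genes equally, was 0.03, -0.57 and -0.25 in HFD samples 1, 2 and 3. In the controls it was 0.55, 0.17 and 0.07, so that it separated the diets narrowly, with HFD 1 close to control 3. Of the 4 ventricular genes 1, Myh7, was lower at an unadjusted p under 0.05. Of the 6 atrial myocyte genes 3 were lower at that level (against 5.55% of all genes tested), and Sbk2 had an adjusted p of 0.0027 by limma. The atrial sum was 287590.2 and 288452 in HFD 1 and HFD 2, and 520943 in HFD 3, which lay above the control range of 445759 to 485424. HFD 3 was also the lowest sample for Fasn, Scd1, Scd2 and Fads2. The part of these cell types in the lower levels of the 4 genes was not tested.

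For the remaining lists, the 8 macrophage markers had 4 genes higher and 0 lower at an unadjusted p under 0.05 (sums 9829 to 11469 in HFD and 7279 to 9517 in control). At that level 6.66% of all genes tested were higher and 5.55% lower. The 5 endothelial markers had 1 higher and 0 lower (14017 to 15687 and 11650.2 to 12448). The 5 fibroblast markers had 0 higher and 1 lower (27259 to 30303 and 28361 to 33401), and the 4 epicardial ones 1 higher and 0 lower (1144 to 1779.6 and 1161 to 1811). The 4 erythroid genes had none in either direction (1294 to 2097 and 1414 to 2125). The mean log2 deviations of the macrophage and endothelial lists also separated the diets, with higher values in HFD. For the macrophage list they ran from 0.14 to 0.27 in HFD and from -0.45 to -0.08 in control atria. For the endothelial list they ran from 0.05 to 0.21 and from -0.19 to -0.05.

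**Figure D3:**
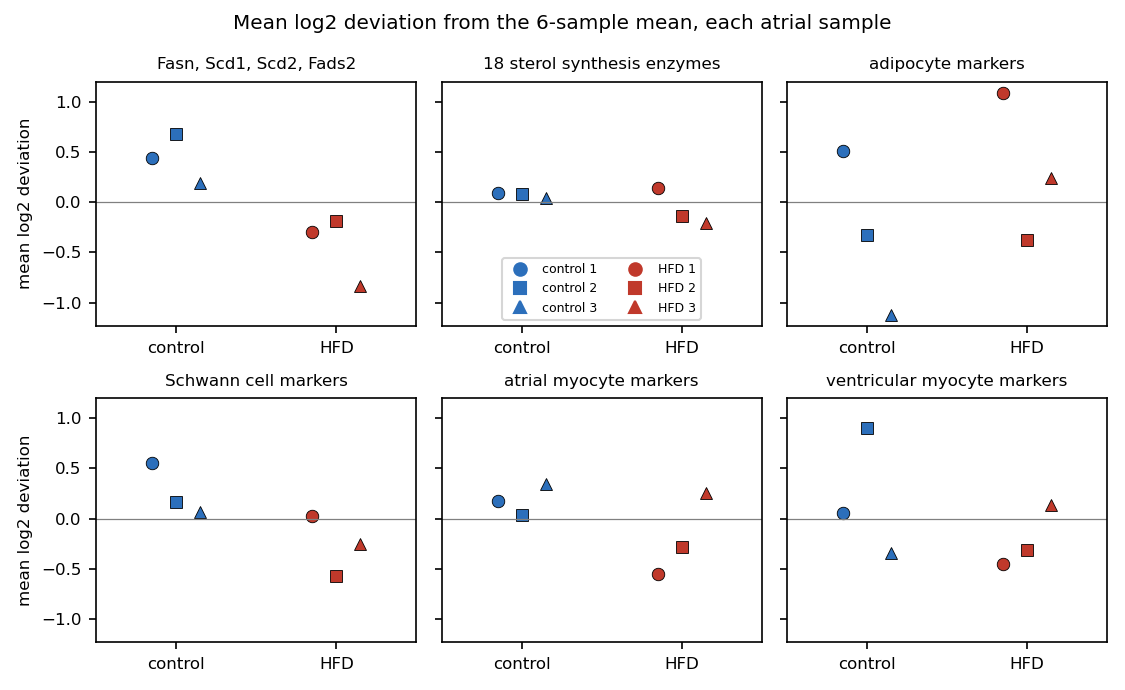
Mean log2 deviation from the 6-sample mean in each control and HFD atrial sample for 2 sets of lipid genes and 4 lists of cell type markers. The first set was picked after its values were seen. It runs from 0.19 to 0.68 in controls and from -0.83 to -0.19 in HFD samples. The Schwann cell list also separates the diets, narrowly, with HFD 1 at 0.03 and control 3 at 0.07. The other 4 panels overlap.

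The SREBP regulators had nearly equal levels in the 2 groups. Srebf1, whose protein forms control fatty acid synthesis, had 956, 901 and 871 normalized counts in HFD samples 1, 2 and 3 and 962, 901 and 885 in the controls. Its log2 difference was -0.01 with a 95% interval of -0.26 to 0.23. Srebf2, the regulator of cholesterol synthesis, had 786, 871 and 929 against 877, 749 and 849, a log2 difference of 0.06 (95% interval -0.21 to 0.34). The escort Scap and the retention factor Insig2 had log2 differences of -0.06 and 0.07. Insig1, itself a well-known SREBP target, ranged from 213 to 344 normalized counts in HFD and from 204 to 358 in control atria, and its 95% interval was -0.56 to 0.48. The median log2 difference of these 5 genes was -0.01. An RNA level says nothing of the cleaved, nuclear form of an SREBP.

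The mevalonate pathway carries acetyl-CoA to farnesyl diphosphate. Its entry enzymes were level: Acat2, the cytosolic thiolase, had a log2 difference of 0.01, although a close paralog, Acat3, makes the split of its reads uncertain, and Hmgcs1, which makes HMG-CoA, had 779, 660 and 704 normalized counts in HFD samples 1, 2 and 3 and 658, 689 and 756 in the controls, a log2 difference of 0.03 (95% interval -0.25 to 0.30). The kinases that follow did not pass the test. Mvk had a log2 difference of -0.35 (95% interval -0.85 to 0.16), and -0.10 without HFD 3, and Pmvk had one of -0.29 (-0.63 to 0.05). Pmvk was 1 of the 2 sterol enzymes without overlap, with 225, 215 and 224 normalized counts in HFD and 314, 248 and 255 in control atria, a separation that did not pass the test (adjusted p = 0.496 from limma). Mvd, the decarboxylase, Idi1, the isomerase, and Fdps, which makes farnesyl diphosphate, had log2 differences of -0.10, -0.28 and 0.01, and that of Idi1 was -0.07 without HFD 3. The median of the 7 genes was -0.10.

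The 11 enzymes from squalene to cholesterol had a median log2 difference of -0.11, with 9 of them below 0 (against 7497 of the 15275 genes tested). By limma 0 of them had an unadjusted p under 0.05, and adjusted p-values ran from 0.438 to 0.982. Fdft1, squalene synthase, had a log2 difference of -0.03. Its merged exons share 18.3% of their length with Ctsb on the opposite strand, which had a mean of 11584 normalized counts, and since the use of strand in counting is not stated its own value is uncertain. Sqle, the epoxidase that controls entry into the sterol branch, was sparse and uneven, with 69.3, 18.4 and 36.3 normalized counts in HFD and 52.6, 41.7 and 54.7 in control atria. Only 18 reads lay on it in HFD 2, and its interval of -1.41 to 0.53 was the widest among the sterol enzymes. Lss, which closes the ring to lanosterol, had a log2 difference of 0.12, and Cyp51, the lanosterol demethylase, one of -0.11. Tm7sf2, a sterol reductase, shares 12.1% of its exon length with Vps51 on the same strand, and Fdps shares 26.7% with Gm43738.

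Among the later steps, Nsdhl, a demethylating dehydrogenase, had the lowest adjusted p of the sterol enzymes. It had 136, 116 and 95.4 normalized counts in HFD samples 1, 2 and 3 and 130, 179 and 162 in the controls, a log2 difference of -0.44 (95% interval -0.90 to 0.03, adjusted p = 0.438 from limma). One HFD sample lay within the control range. Dhcr7, the last reductase of one route to cholesterol, had 233, 230 and 252 normalized counts in HFD and 294, 318 and 254 in control atria. The groups touched without overlapping, and the log2 difference was -0.27 (95% interval -0.60 to 0.06). Msmo1, Hsd17b7, Tm7sf2, Sc5d and Ebp had log2 differences of -0.24, -0.12, -0.04, -0.04 and 0.02. Over both steps of sterol synthesis, all 18 estimates lay within 0.5 of 0 on the log2 scale. For 17 of the 18, all but Sqle, the 95% interval lay within 1 of 0, so a doubling or halving was outside it.

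The promoters of 3 genes are shown because they stand for the 2 patterns: Hmgcs1, a sterol enzyme that was level, and Fasn and Fads2, which were lower in HFD. Each line gives the RefSeq window of 250 bases before to 50 after the annotated start, 5′ to 3′ on the gene's strand, in GRCm38.p6. Hmgcs1 lies on the plus strand at chr13:119690101-119690400, Fasn on the minus strand at chr11:120824498-120824797 and Fads2 on the minus strand at chr19:10101454-10101753. Capitals mark matches to the sterol regulatory element TCACNCCAC and to the NF-Y box CCAAT, on either strand. NF-Y is a factor that binds beside SREBPs at many lipid genes.
Hmgcs1: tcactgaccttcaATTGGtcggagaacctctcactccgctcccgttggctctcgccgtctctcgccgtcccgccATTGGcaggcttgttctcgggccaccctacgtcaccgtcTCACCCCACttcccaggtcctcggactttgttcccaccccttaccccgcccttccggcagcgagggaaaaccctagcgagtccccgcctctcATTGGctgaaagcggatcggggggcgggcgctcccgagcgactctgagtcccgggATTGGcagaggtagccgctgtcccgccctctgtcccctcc
Fasn: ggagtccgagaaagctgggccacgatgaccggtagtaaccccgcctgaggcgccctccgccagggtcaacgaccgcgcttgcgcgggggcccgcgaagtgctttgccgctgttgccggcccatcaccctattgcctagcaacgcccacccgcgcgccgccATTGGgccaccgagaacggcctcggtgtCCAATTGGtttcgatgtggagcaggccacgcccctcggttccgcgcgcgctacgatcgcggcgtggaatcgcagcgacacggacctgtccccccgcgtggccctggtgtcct
Fads2: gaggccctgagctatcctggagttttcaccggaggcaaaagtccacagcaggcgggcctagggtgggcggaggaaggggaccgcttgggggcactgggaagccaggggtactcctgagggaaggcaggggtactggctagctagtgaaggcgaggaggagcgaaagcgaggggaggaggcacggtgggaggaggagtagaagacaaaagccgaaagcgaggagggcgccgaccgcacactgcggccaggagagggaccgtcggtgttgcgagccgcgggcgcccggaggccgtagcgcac

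Promoters were found for 28 of the 36 genes, and Scd1, Scd2 and Fads1 were among those without one. TCACNCCAC was present in 1 of the 28 genes, Hmgcs1, at 137 bases before the start, against 1.44% of the 27025 genes with a promoter, and per window in 1.24% of all 32817 windows. CCAAT was present in 21 of the 28 genes (75.0%), against 41.1% of all genes with a promoter, and per window in 59.5% of the windows of the listed genes against 37.4% of all windows. It was present in 14 of the 15 sterol enzymes with a promoter and in 4 of 5 regulators. Of the 6 fatty acid genes only 3 had a promoter (Fasn, Elovl6 and Fads2), and it was present in 1 of them. That gene was Fasn, with 3 matches, 2 of which overlap in a palindrome, while Hmgcs1 had 4, none overlapping the sterol element. The direct-repeat LXR element called DR4 was in 0 of the 28 genes and in 0.0152% of all promoters. These are matches of letters in short windows.

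The LXR genes were at similar levels on both diets. Nr1h3, which encodes LXR alpha, was the 1 gene of the 36 with every HFD sample above every control sample. It had 822, 633 and 701 normalized counts in HFD samples 1, 2 and 3 and 598, 631 and 524 in the controls. HFD 2 and control 2 were almost equal, and the log2 difference of 0.29 (95% interval -0.01 to 0.60) did not pass the test (adjusted p = 0.431 from limma). Nr1h2, which encodes LXR beta, had a log2 difference of 0.02 (95% interval -0.24 to 0.28). Abca1, the exporter of cholesterol to lipid-poor apolipoprotein, had 1064, 1056 and 488 normalized counts in HFD and 642, 884 and 786 in control atria. Here HFD 1 and HFD 2 were above all controls and HFD 3 below all of them, so the log2 difference was 0.10, and 0.47 without HFD 3 (adjusted p = 0.157 from limma). Mylip, a ubiquitin ligase that sends lipoprotein receptors to degradation, had the same order, with 934, 919 and 535 against 751, 831 and 797 and a log2 difference of -0.04. Abcg1, the exporter to mature lipoprotein particles, had one of -0.25 (95% interval -0.58 to 0.08).

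The list closed with a pair of genes of sterol movement and storage. Stard4, which carries sterol between membranes, had 88.4, 145 and 106 normalized counts in HFD and 79.5, 83.5 and 118 in control atria. The samples overlapped, with a log2 difference of 0.26 (95% interval -0.30 to 0.82). Soat1, which esterifies cholesterol for storage, had a log2 difference of 0.11 (95% interval -0.23 to 0.45).

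Sample by sample, the lipid genes did not move as 1 block. HFD 3 had the lowest value of the 6 samples for 14 of the 36 genes, namely Fasn, Scd1, Scd2, Fads1, Fads2, Srebf1, Acat2, Mvk, Idi1, Fdft1, Nsdhl, Abca1, Abcg1 and Mylip. HFD 1 had the highest value for 12, among them the sterol enzymes Acat2, Hmgcs1, Fdps, Fdft1, Sqle, Msmo1 and Ebp. Control 2 was highest for 9, among them Fasn, Scd1 and Elovl6. How often each sample was lowest or highest over all genes tested was not counted. These counts thus cannot be called particular to the listed genes. The mean deviation of the 18 sterol enzymes was 0.14, -0.14 and -0.21 in HFD samples 1, 2 and 3, against 0.09, 0.08 and 0.04 in the controls, on the log2 scale. The spread among HFD samples was larger than among controls. Without HFD 1, Sqle and Nsdhl also reached an unadjusted p under 0.05, both lower, which made 6 genes in place of 4 (16.7% of the 36, against 5.35% of all genes lower in that fit).

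**Figure D4:**
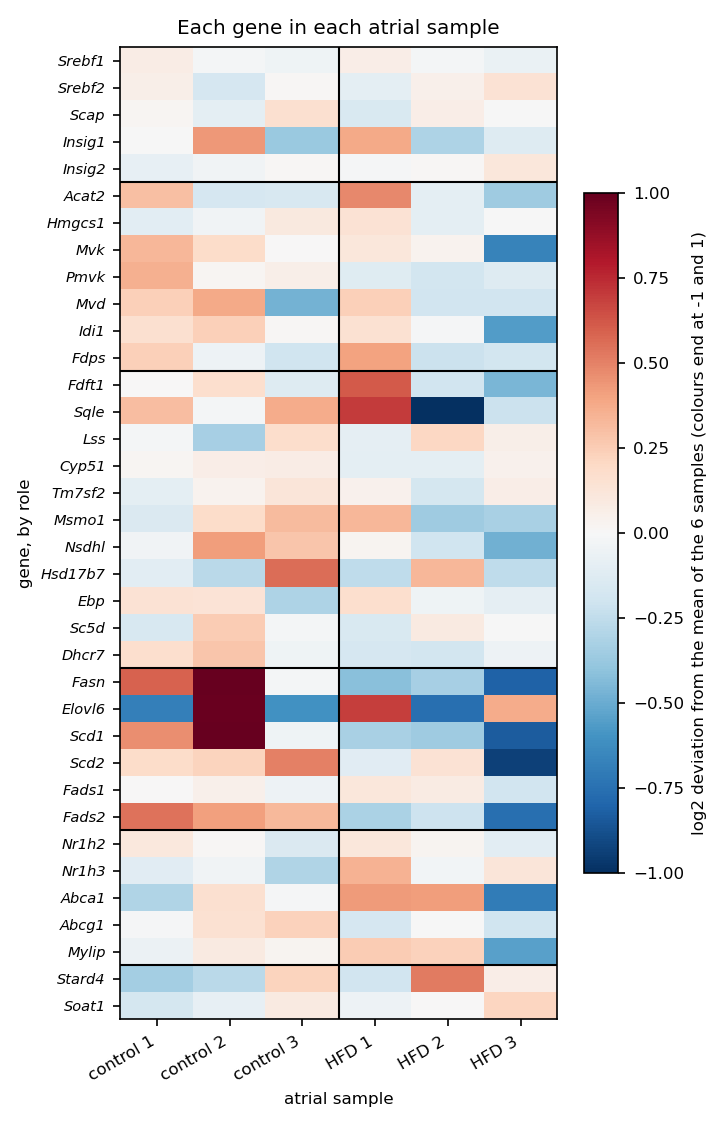
Log2 deviation of each gene from its mean over the 6 atrial samples, with genes in rows by role and samples in columns. Red marks values above the mean and blue values below it. Fasn, Scd1 and Fads2 are blue in all 3 HFD samples, and so are the sterol enzymes Pmvk and Dhcr7, with smaller deviations. The other sterol enzyme rows hold values above and below the mean among the HFD samples.

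Levels of different genes were compared as normalized counts per kilobase of merged exons. The highest was Nr1h2 with a mean of 389, from 350 to 419 over the 6 samples, followed by Scd1 with 365 and Scd2 with 341. Scd1 ranged from 186 to 704 and Scd2 from 170 to 462, so these 3 cannot be ordered beyond their spread. Insig2, Nr1h3 and Mylip came next with 261, 259 and 246 per kilobase. Srebf1 had 162 and Srebf2 117, and their ranges of 155 to 171 and 104 to 129 did not overlap. Of the sterol enzymes Hmgcs1 was highest with 154, then Pmvk with 144 and Ebp with 129. Fasn had 116, from 60.3 to 211. The lowest were Sqle with 8.21, Elovl6 with 7.68 and Lss with 5.51, whose ranges overlap. Merged exons count every annotated exon, which lowers this measure for genes with many transcript forms.

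**Figure D5:**
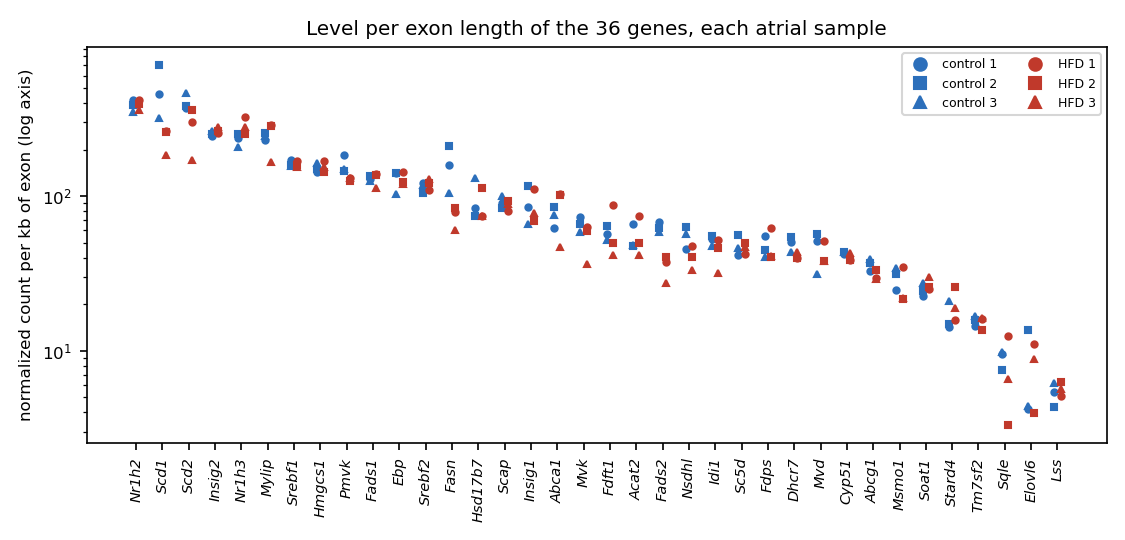
Normalized count per kilobase of merged exons (log axis) of the 36 genes in each atrial sample, ordered by their mean. Nr1h2, Scd1 and Scd2 lead with means of 389, 365 and 341, and Sqle, Elovl6 and Lss lie lowest.

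Around these genes, 66 others of the same metabolism were listed in 7 groups, and 62 passed the filter. By limma 0 of the 62 had an adjusted p under 0.05, 8 were higher and 6 lower at an unadjusted p under 0.05 (against 6.66% and 5.55% of all genes tested), and their median log2 difference was 0.05. Among the 10 genes that supply acetyl-CoA, malonyl-CoA, citrate and NADPH or regulate lipogenesis, 3 were lower and 1 higher at an unadjusted p under 0.05. Thrsp, a lipogenic regulator, had 261, 178 and 281 normalized counts in HFD samples 1, 2 and 3 and 480, 556 and 252 in the controls. Control 3 lay within the HFD range, and the log2 difference was -0.79 (adjusted p = 0.285 from limma). The other 2 lower genes, Acaca and Slc25a1, are named for completeness of this count of 3, with log2 differences of -0.52 and -0.56. They encode the acetyl-CoA carboxylase that feeds fatty acid synthase and the mitochondrial citrate carrier. Acacb, the carboxylase isoform that regulates fatty acid entry into mitochondria, was the higher one. It had 4104, 4821 and 3364 normalized counts in HFD and 3136, 3319.9 and 2972 in control atria, without overlap, and a log2 difference of 0.37 (adjusted p = 0.308 from limma).

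In the list of further elongation and desaturation genes, 2 were higher and 1 lower of 9 tested at an unadjusted p under 0.05. At that level, used for each count in this paragraph, 6.66% of all genes tested were higher and 5.55% lower. Tecr, the reductase of very long chain elongation, had a log2 difference of -0.34 and Fads3, a Fads2 paralog, one of 0.31, both without overlap. Of the 5 genes of triglyceride assembly 2 were higher and 0 lower at that level. Lpin1, a phosphatidate phosphatase, had 3914, 4874 and 3758 normalized counts in HFD and 2912, 3134 and 3241 in control atria, a log2 difference of 0.43 (adjusted p = 0.167 from limma). Dgat2, the lowest-p gene in the other direction, had one of -0.07. Of 8 further genes of sterol and isoprenoid synthesis 1 was higher and 1 lower, namely Nus1, a subunit of the dolichol-forming transferase (0.40), and Acat1, the mitochondrial thiolase (-0.25).

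None of the 9 genes of SREBP processing and sterol sensing reached an unadjusted p under 0.05. Among those below 0, the smallest p was that of Fbxw7, the ligase subunit that marks nuclear SREBPs for degradation, with a log2 difference of -0.25. Of the 10 tested genes of oxysterol synthesis and LXR partners 1 was higher and 0 lower at that level (against 6.66% and 5.55% of all genes tested). This was Lpcat3, a phospholipid-remodelling LXR target, with 954, 868 and 621 normalized counts in HFD and 596, 549 and 550 in control atria and a log2 difference of 0.51 (adjusted p = 0.217 from limma). Without HFD 3 it was 0.69 (adjusted p = 0.0217 from limma), in a fit that called 318 of all genes tested, against 114 with all samples. With any other sample left out it lay between 0.38 and 0.54 (adjusted p from 0.369 to 0.531, limma). Abcg4 had the smallest p among the lower genes (-0.56, adjusted p = 0.64 from limma). Of the 11 tested genes of cholesterol handling 1 was higher and 1 lower at an unadjusted p under 0.05. The higher one was Nceh1, a cholesteryl ester hydrolase (0.31), and the lower one Osbpl2, an oxysterol-binding protein (-0.25).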

How the data were processed

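Bulk RNA of 6 atrial samples was sequenced as directional libraries. The authors used STAR for alignment to GRCm38, Salmon for quantification of unique reads over Ensembl genes, and DESeq2, whose size factors (1 per sample) divide the counts. These deposited signal values, here called normalized counts, were used, and the authors' own fold changes, p-values and ranking metric in the same table were not. Tool versions and the use of strand are not given in the sources used here. In each sample 100% of the values were whole multiples of the value of 1 read (tolerance 0.01), which recovered the reads, and 3 reads correspond to between 2.05 and 3.41 normalized counts (counting error only).

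As the deposited values were normalized, the diets were set against each other by limma 3.58.1, run under R 4.3.3 (variance trend, pseudocount 1, mean of at least 10, Benjamini-Hochberg over 15275 genes, threshold 0.05, no covariates). Alternatives included edgeR 4.0.16 and DESeq2 1.42.0 on the recovered reads. The test was also run on simulated counts whose spread was estimated from these samples, and no result here rests on that run. Exons, symbols and overlaps came from GENCODE M21 (GRCm38), promoters from RefSeq. Every listed gene is named. From each related list the gene with the smallest p in each direction is named, as none passed, and from marker lists the most abundant genes, except where a gene is not reported here. The genes and lists were chosen with earlier results of these data known.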

Additional observations from a re-analysis of the deposited data

How the results depend on the processing

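All genes called numbered 74 higher and 40 lower. Limma without a variance trend gave 0 and 0 (1717 at an unadjusted p under 0.05), the replicate block 113 higher, and DESeq2 292 higher and 178 lower. With each sample left out in turn the counts ran from 10 (without control 2) to 202 (without HFD 3) higher and from 4 to 116 lower, at the same samples. Of the 36 genes, 0 were called lower, against 2 with the replicate block (0.288% of all genes), 3 with DESeq2, and 0 to 1 with a sample left out. At an unadjusted p under 0.05, 0 were higher, and 0 to 1 with a sample left out (Nr1h3 without HFD 2, Abca1 without HFD 3), and 4 were lower, and 3 to 6 with a sample left out. The median log2 difference ran from -0.01 to 0.05 for the regulators, from -0.33 to -0.02 for the mevalonate pathway and from -0.09 to 0.23 for the LXR group with a sample left out. The causes were not tested. The 2 genes called with the replicate block were Fasn (adjusted p = 0.0106) and Scd1 (adjusted p = 0.0191), both from limma. The samples share only a number: deviations from the group means correlated at 0.116, -0.027 and -0.004 for the same-numbered pairs 1, 2 and 3, and HFD 2 correlated best with control 3 (0.16). Over the 16 alternatives, 33 of the 36 genes had an adjusted p under 0.05 in none, the exceptions being Fasn, Scd1 and Fads2, and the 4 lower fatty acid genes kept their sign in each. With 3 samples a group, a large difference could go undetected in a gene that varied widely within each diet. The interval of Elovl6, -0.93 to 1.33, is an example.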

Other observations

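Scd4 and Gpam, lipid genes outside the rule for named genes were picked after their values were seen, because they ran against the lower Fasn and Scd1. Scd4, a desaturase paralog known from the heart, had 1293, 1477 and 1381 normalized counts in HFD samples 1, 2 and 3 and 1392, 674 and 947 in the controls. Its log2 difference was 0.52 (adjusted p = 0.365 from limma), with control 1 inside the HFD range, and it was 0.27 without control 2. Gpam, which encodes the mitochondrial acyltransferase that starts glycerolipid synthesis, had 566, 1288 and 502 normalized counts in HFD and 303, 448 and 332 in control atria. The groups did not overlap, and the log2 difference was 1.00 (adjusted p = 0.192 from limma), or 0.58 without HFD 2 and called with the replicate block (adjusted p = 0.0381 from limma).

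Of the listed related genes, 4 were too low to be tested. Elovl3 had 14.1, 2.04 and 3.41 normalized counts in HFD samples 1, 2 and 3 and was at 1.12 in control 1 and listed at 0 in controls 2 and 3. Soat2, the esterifying enzyme of gut and liver, had 14.1, 12.2 and 9.09 against 11.2, 2.74 and 3.28. Scd3 and Cyp7b1 had means of 5.2 and 13.9 in HFD and 1.84 and 5.92 in control atria.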
